A study of Saccharomyces cerevisiae with 4 samples.

Results

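The genes described here are 60 intron-containing genes of budding yeast (Saccharomyces cerevisiae), listed so as to leave out ribosomal protein, splicing, mRNA export and respiration genes. The list does hold ASC1, whose product sits on the small ribosomal subunit. The genes were taken from a fixed list of gene symbols. No measured value served as a filter, but the list was chosen with earlier results of these data known. They were matched to the symbols of 2 array platforms that together printed spots for 5583 named genes. All 60 were printed on the first platform and 59 on the second, which had no spot named RIM1. Of the 60, 58 had a value on at least 1 array, among 5243 genes with a value in the whole series, and GIM5 (a prefoldin subunit gene) and BET4 (a prenyltransferase subunit gene) had none.

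Each of the 4 arrays compared RNA precipitated through zz-tagged Mex67 with RNA precipitated through the bare zz tag, the control, per the labels. Zz is a tag that binds immunoglobulin. By the labels, channel 1 held the zzMex67 precipitate on replicates 1, 3 and 4, and channel 2 held it on replicate 2. Replicate 1 stands on the first platform, replicates 2, 3 and 4 on the second, and the replicate numbers only name arrays. Replicates 3 and 4 carry the same slide number (3) and scan number (3) in their titles, while the date in the title differs among all 4 arrays and is not tied there to a step. The strain, its other alleles, the growth conditions and whether the arrays came from separate cultures are not stated in the sources used here, so p-values measure only the spread between arrays, which may be technical.

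Most yeast genes have no intron. Those that do carry a single intron as a rule, often near the start of the gene, and the spliceosome removes it in the nucleus before the mRNA leaves. Mex67, with its partner Mtr2, is the receptor that takes mRNA through the nuclear pore, and it reaches the mRNA through adaptor proteins such as Yra1. In yeast these adaptors join mRNAs with and without introns. The listed genes cover the cytoskeleton, vesicle traffic, ubiquitin-like conjugation, chromosomes, transcription and tRNA modification, signalling, and metabolism.

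All values below are log2 ratios of the 2 precipitates minus the array's median over named genes, so that 0 is the median gene and 1 is 2-fold above it. Replicate 2 is given with its sign turned, because its channels are reversed in the labels. A higher ratio likely means more RNA with zzMex67, since it comes first in the titles and is in channel 1 on the other 3 arrays. The files do not settle this direction, and "higher" and "lower" describe the ratio only. The arrays had values on 4409, 524, 2280 and 2421 named genes (replicates 1 to 4), and gene by gene they hardly correlated. Over the genes that a pair of arrays shared, Pearson's r lay between -0.114 and 0.084. The lowest r was that of replicates 2 and 4, and each r with replicate 2 changes sign if that array is taken as deposited. Replicate 2, with values on 7.84% of its spots, measured 6 listed genes.

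Listed genes were measured about as often as other genes. Values were present for 49 of 60 (81.7%) on replicate 1, against 78.9% of the other genes printed there. On replicates 2, 3 and 4 they were present for 6, 26 and 24 of 59 listed genes (10.2%, 44.1% and 40.7%), against 9.45%, 41.1% and 43.7% of other genes. Only ASC1 and TFC3 had a value on all 4 arrays, 10 genes had one on 3 arrays, 21 on 2 and 25 on 1.

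The median of the listed genes lay slightly above that of all other genes on each array (replicate 2 with its sign turned). On replicate 1 it was 0.39 (SD over genes 1.93, 49 genes), or 1.31-fold, and 30 genes (61.2%) lay above the array median, against 50% of all genes. On replicate 3 it was 0.59 (SD 1.79, 26 genes), or 1.51-fold, with 18 genes (69.2%) above the median, against 50% of all genes. On replicate 4 it was 0.11 (SD 1.29, 24 genes), or 1.08-fold, with 13 genes (54.2%) above, again against 50%. The 6 genes of replicate 2 had a median of 1.14 (SD 1.82), with 4 above, against 50% of all genes, and this median becomes -1.14 with the sign as deposited. Single members lay far on both sides of the median on each array.

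**Figure D1:**
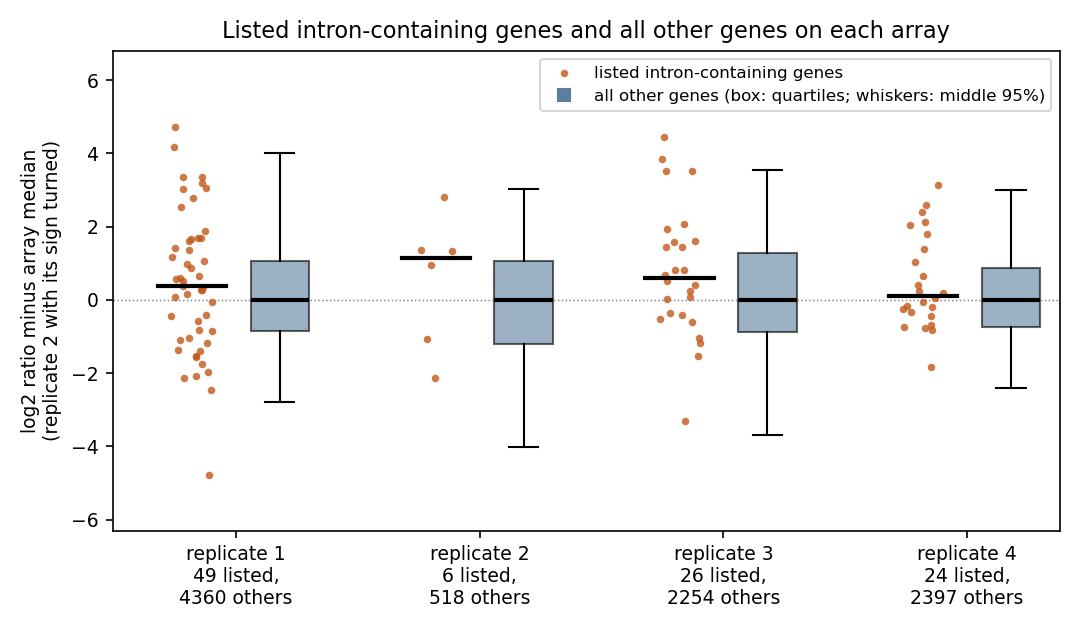
Log2 ratio minus the array median (vertical axis) of each listed intron-containing gene (points, black bar at their median) beside all other genes (box at the quartiles, whiskers over the middle 95%), for each array. The medians of the listed genes are 0.39, 1.14, 0.59 and 0.11 on replicates 1 to 4, and the points spread over much of the range of the other genes.

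The share of ratios 2-fold or more above the array median among the listed genes depended on the setting. On replicate 1 there were 18 (36.7%), against 26% of all genes, and 13 were 2-fold or more below the median (26.5%), against 21.1%. On replicate 3 there were 10 above (38.5%), against 28.9% of all genes, and 4 below (15.4%), against 21.9%. On replicate 4 there were 8 above (33.3%), against 22.5%, and 1 below (4.17%), against 17.4%. On replicate 2, turned, there were 3 above (50.0%) and 2 below (33.3%), against 27.7% and 29.2% of all genes, and as deposited there were 2 above and 3 below, against 29.2% and 27.7%. In another setting, each run of 400 spots with consecutive spot numbers was set to a median of 0. The shares above were then 32.7%, 50.0%, 26.9% and 16.7% on replicates 1 to 4, against 25.5%, 23.7%, 18.8% and 18.7% of all genes. On replicate 4 the listed genes thus came out below the others. Members are not replicates, and no test was made of these shares.

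**Figure D2:**
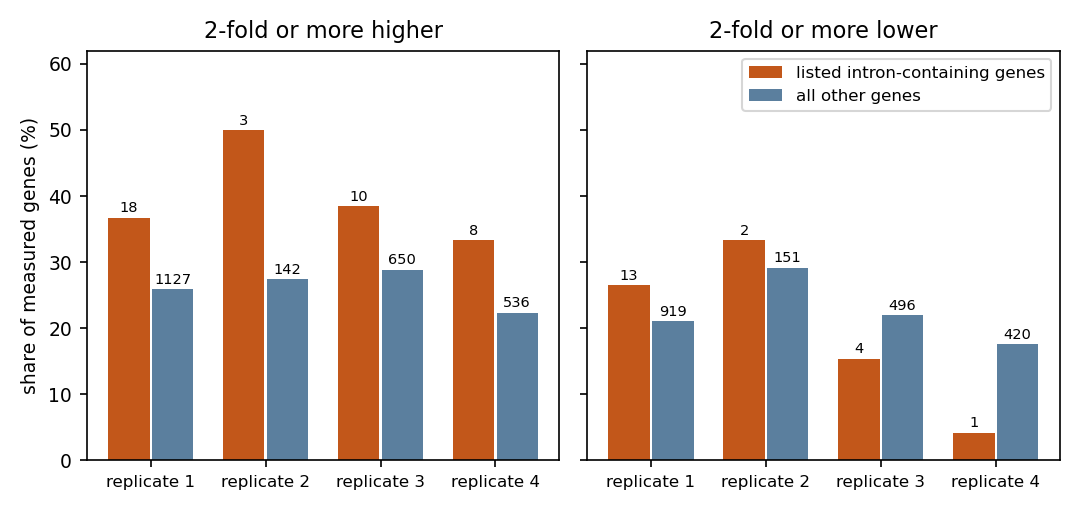
Share of measured genes (%) at 2-fold or more above (left) and below (right) the array median, for the listed intron-containing genes and all other genes on each array; the number over each bar is its count of genes. The left bars of the listed genes stand at 36.7%, 50.0%, 38.5% and 33.3% on replicates 1 to 4, the second of them from 3 of 6 genes.

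No listed gene passed the test. Limma's fit on the second platform, with the genes that had a value on at least 2 of its 3 arrays, called 0 of 1212 genes (0%) after Benjamini-Hochberg adjustment at a threshold of 0.05, and 57 (4.7%) had an unadjusted p under 0.05. Of the 14 listed genes in this fit, 2 rested on 3 arrays and 12 on 2. None had an unadjusted p under 0.05, and limma's adjusted p was 0.998 for each. Their fitted means were above 0 for 11 and below 0 for 3, with a median of 0.73, against 0.26 for the other genes in the fit. The spread within a gene was pooled over all genes at 1.80, which gives an SE of 1.04 on 3 arrays and 1.27 on 2.

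Of the 33 listed genes on 2 or more arrays, 11 (33.3%) had a higher ratio on every array that measured them, against 21.1% of all 3288 such genes. A lower ratio on every array was found for 4 (12.1%), against 21.9%. The remaining 18 were above the median on some arrays and below it on others. This count joins the platforms by gene symbol, for signs only, and was picked with the values in view. With replicate 2 as deposited it was 9 higher (27.3%) and 4 lower (12.1%), against 21.1% and 22.3% of all genes. On the 14 genes measured more than once on the second platform alone it was 6 higher (42.9%), against 28.8% of all 1212 such genes, and 1 lower (7.14%), against 17.2%. Of these 14 genes, 12 rested on 2 arrays. With replicate 2 as deposited, 5 of the 14 were higher and 2 lower, against 365 and 216 of all 1212 genes. On replicates 1, 3 and 4, which share a channel order, 2 of 8 listed genes were higher on all 3 (19.2% of all genes were) and 0 were lower on all 3 (9.24% of all genes were). The 2 were ASC1 and EPT1.

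**Figure D3:**
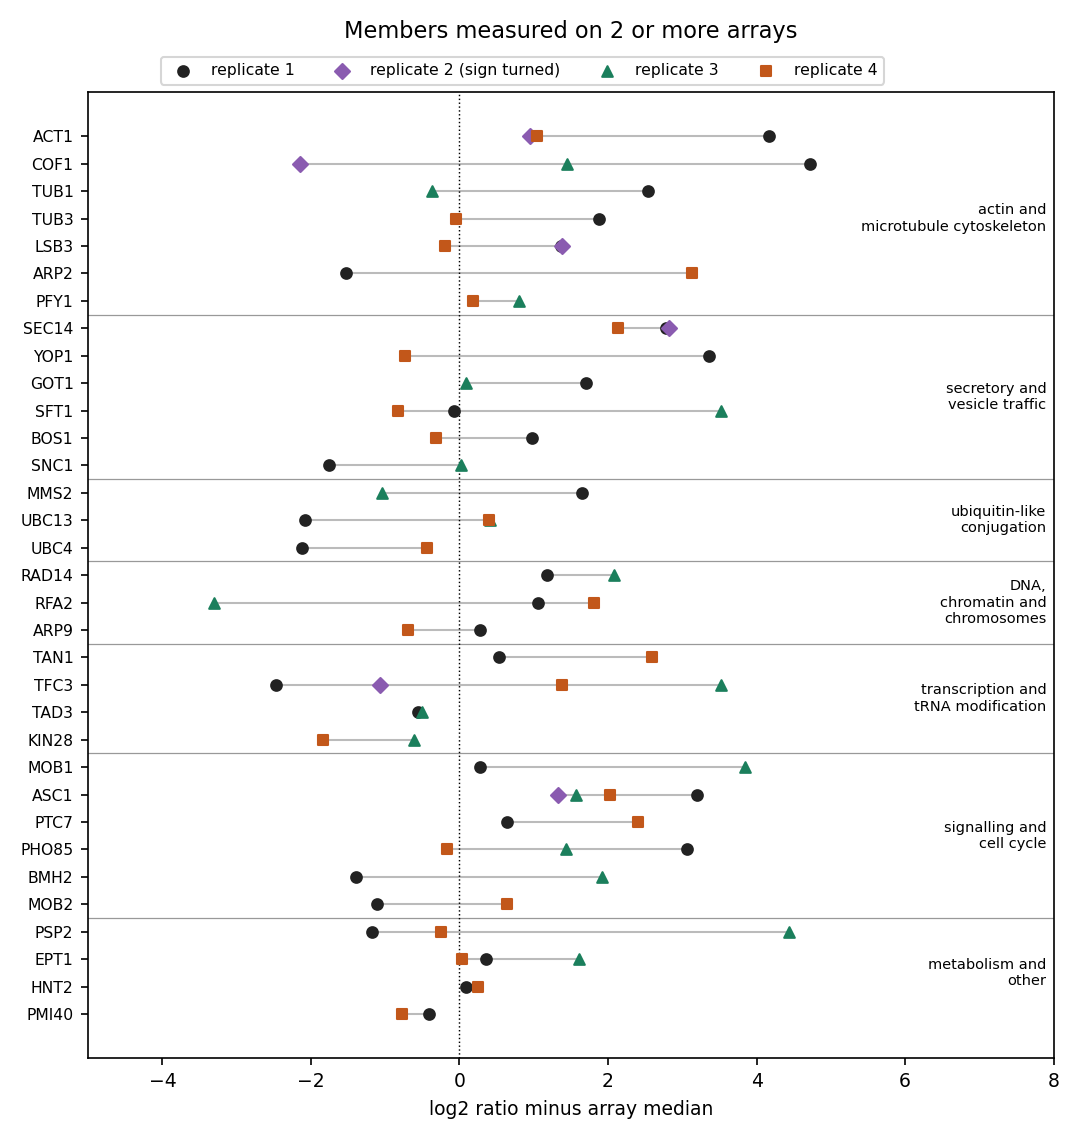
Log2 ratio minus the array median (horizontal axis) of the 33 listed genes on 2 or more arrays, by role, with a symbol for each array and a grey line from the lowest to the highest value of a gene. ASC1, SEC14 and ACT1 have each of their points near 1 or above it, while COF1, TFC3, RFA2 and PSP2 have points several units apart on both sides of 0.

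Of the 12 listed genes on 3 or more arrays, ASC1, SEC14, ACT1 and EPT1 lay above the median on each, and the first 3 by about 2-fold or more. ASC1 (YMR116C), whose product is the yeast counterpart of the scaffold protein RACK1 and sits on the small ribosomal subunit, had 3.20, 1.33, 1.57 and 2.03 on replicates 1 to 4. All 4 values were more than 2-fold above the median, and its mean on the second platform was 1.64 ± 0.36 (SD, n = 3 arrays), with an SE of 1.04 in the fit (limma, adjusted p = 0.998). Its duplicate spots lay within 0.64 of each other on each array of that platform. With replicate 2 as deposited the mean was 0.76, and 3 of its 4 values stayed above the median.

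SEC14 (YMR079W), the gene of a lipid transfer protein that keeps the Golgi able to form secretory vesicles, had 2.78, 2.82 and 2.14 on replicates 1, 2 and 4. The 3 values lay close together and no value was present on replicate 3. Its mean on the second platform was 2.48 ± 0.48 (SD, n = 2 arrays), the highest of the 14 tested genes, with an unadjusted p of 0.0513 (limma, adjusted p = 0.998). With replicate 2 as deposited this mean turns to -0.34, so that its direction on that platform rests on the sign of 1 array, where SEC14 had a single spot.

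Actin itself was high. ACT1 (YFL039C), whose intron is a standard substrate in studies of splicing, had 4.17, 0.95 and 1.04 on replicates 1, 2 and 4. All 3 values were above the median, replicate 1 far more so than the others. The mean on the second platform was 0.99 ± 0.06 (SD, n = 2 arrays; limma, adjusted p = 0.998), and it was 0.04 with replicate 2 as deposited.

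Other cytoskeletal genes were high mainly on replicate 1. There 7 of 9 measured members lay above the median, with a median of 1.87 (SD 2.21). COF1 (YLL050C), the gene of the actin-severing protein cofilin, had 4.72, -2.15 and 1.45 on replicates 1, 2 and 3, and the value on replicate 1 was the highest of all listed genes there. Its values lay on both sides of the median, and its spots on replicate 1 differed by 2.06. LSB3 (YFR024C-A), which encodes an actin-bundling protein, had 1.37, 1.37 and -0.19 on replicates 1, 2 and 4. Its spots disagreed by 3.07, 3.12 and 1.36 on these arrays, more than the values themselves.

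The alpha-tubulin genes TUB1 and TUB3 had 2.54 and 1.87 on replicate 1, both above the median, but -0.37 (TUB1, replicate 3) and -0.05 (TUB3, replicate 4) elsewhere. CIN2, which encodes a factor in tubulin folding, had 3.36 on replicate 1 alone. ARP2, the gene of an actin-related protein that nucleates branched filaments, had the lowest cytoskeletal ratio on replicate 1, -1.53, and the highest on replicate 4, 3.13. DYN2 (dynein light chain) had -1.36 and YSC84, a relative of LSB3, 0.88, both on replicate 1 only. PFY1 (profilin) had 0.80 and 0.18 on replicates 3 and 4, both above the median.

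For the vesicle traffic genes the ratios of replicate 1 spread evenly about the median. Of 14 measured there, 8 lay above the array median and 6 below, with a median of 0.48 (SD 1.70). The highest was YOP1 at 3.35, a gene whose product shapes tubules of the endoplasmic reticulum, and it had -0.73 on replicate 4. NCE101, a gene implicated in secretion of proteins without a signal sequence, had 3.04 on replicate 1 alone. The lowest was SNC1 at -1.76, which encodes a SNARE (a membrane fusion protein) of secretory vesicles, and its ratio on replicate 3 was 0.03. SFT1 (YKL006C-A), a Golgi SNARE gene, had -0.07, 3.52 and -0.82 on replicates 1, 3 and 4, a single high value with duplicate spots only 0.37 apart on that array.

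The remaining SNARE genes on replicate 1 were all above its median. BET1, BOS1 and NYV1 had 0.56, 0.98 and 1.70 there, and BOS1 had -0.32 on replicate 4. GOT1, a gene of Golgi transport, had 1.70 and 0.09 on replicates 1 and 3. The coatomer gene SEC27 had -1.56, the SNARE-recycling gene SEC17 -1.05, the adaptor gene APS3 -0.85, the retromer gene VPS29 -0.45 and ERV41 0.39 on replicate 1, each on no other array. SAR1, the GTPase gene of COPII coat assembly, and ERD2, the receptor that returns resident proteins to the endoplasmic reticulum, had 0.81 and 0.25 on replicate 3 only.

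Genes of ubiquitin-like conjugation were low on replicate 1, where only 4 of 8 were measured. Their median there was -2.10 (SD 2.64), with 3 of the 4 more than 2-fold below the array median, against 21.1% of all genes. With the runs of spots each set to 0 the median was -0.75. Then 2 of the 4, UBC8 and UBC13, were more than 2-fold below, against 17.0% of all genes. UBC8, a conjugating enzyme gene linked to breakdown of gluconeogenic enzymes, had -4.77, the lowest value of all 4409 genes on that array, and had no value elsewhere. With the runs set to 0 it had -3.54 and was no longer the lowest gene, which had -3.73. UBC4, which encodes a conjugating enzyme for short-lived and abnormal proteins, had -2.12 and -0.44 on replicates 1 and 4. Its close relative UBC5 had -0.40 on replicate 3, so the pair was never measured on the same array. Near-identical members of a pair may share probe signal.

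UBC13 (YDR092W), whose product builds ubiquitin chains in DNA damage tolerance, had -2.07, 0.41 and 0.40 on replicates 1, 3 and 4. Its partner gene MMS2 had 1.66 and -1.04 on replicates 1 and 3, on the opposite side of the median from UBC13 on both. On replicate 3, however, the spots of UBC13 were 0.80 apart. With the runs of spots each set to 0, UBC13 and MMS2 had -0.90 and -0.79 there, on the same side. UBC9, the conjugating enzyme of the modifier SUMO, had -1.52 on replicate 3. RUB1, which encodes another ubiquitin-like modifier, and UBC12, its conjugating enzyme, had 0.67 and 0.52 on replicate 3, with duplicate spots 1.21 and 1.73 apart. Over all arrays, 5 of 12 values of this role, from 8 genes, lay above the median, against 65 of 105 values of all listed genes.

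The 5 chromosome genes on replicate 1 had ratios between 0.16 (VPS75, a histone chaperone gene) and 1.41 (RIM1, a gene of mitochondrial DNA maintenance), with a median of 1.06. All 5 lay above the array median, but so did 10 of 12 other genes of the same processes, against 50% of all genes. With the runs of spots each set to 0, only 3 of the 5 did, and 7 of those 12. The median of the 5 was then 0.11, and VPS75 and ARP9 had -0.11 and -0.02. RAD14, which encodes a damage recognition protein of nucleotide excision repair, had 1.17 and 2.08 on replicates 1 and 3, although its spots differed by 1.85 and 2.22. RFA2 (YNL312W), a gene of the single-stranded DNA binding complex RPA, had 1.06, -3.30 and 1.81 on replicates 1, 3 and 4. Its value on replicate 3 was the lowest of the listed genes there. ARP9, a chromatin remodelling gene, had 0.28 and -0.69 on replicates 1 and 4, and MCM21, a kinetochore gene, had -1.19 on replicate 3.

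TFC3 (YAL001C), which encodes the largest subunit of the RNA polymerase III factor TFIIIC, had -2.47, -1.07, 3.52 and 1.38 on replicates 1 to 4. Its values lay evenly on both sides of the median, each from a single spot, and the mean on the second platform was 1.28 ± 2.30 (SD, n = 3 arrays; limma, adjusted p = 0.998). KIN28, the kinase gene of TFIIH that modifies RNA polymerase II, had -0.62 and -1.83 on replicates 3 and 4. It was 1 of 4 listed genes that were lower on every array measured, with TAD3, UBC4 and PMI40. TAD3, a subunit gene of the enzyme that makes inosine in tRNA, had -0.56 and -0.51 on replicates 1 and 3. TAN1, a gene of tRNA acetylation, had 0.53 and 2.59 on replicates 1 and 4. GCR1, the activator gene of glycolytic transcription, and TAF14, a subunit gene of several transcription complexes, had 0.59 and -0.83 on replicate 1 alone, and the ratios of GCR1 and TFC3 were the highest and lowest of this role there.

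The signalling genes were the role with the largest share of values above the median, 12 of 15 (80%), a comparison made after the values were seen. On each array 50% of all genes lay above it. The 15 values come from only 6 genes, so they are not independent, and ASC1 alone gave 4 of the 12. On replicate 3, all 4 measured were 2-fold or more above it, against 28.9% of all genes on that array. With the runs of spots each set to 0, 2 of the 4 were 2-fold or more above it, against 18.8% of all genes, and PHO85 and BMH2 had 0.12 and -0.18. PHO85 (YPL031C), a cyclin-dependent kinase gene, had 3.07, 1.44 and -0.17 on replicates 1, 3 and 4. MOB1, which encodes an activator of a mitotic exit kinase, had 0.28 and 3.84 on replicates 1 and 3, the second from a single spot. Its relative MOB2, a gene of polarised growth, had -1.10 and 0.64 on replicates 1 and 4. PTC7, a phosphatase gene whose transcript yields a protein with or without splicing, had 0.64 and 2.40 on replicates 1 and 4. BMH2, the gene of a protein that binds phosphorylated partners, had -1.39 and 1.92 on replicates 1 and 3, and its spots on replicate 3 were 2.70 apart. ASC1 was the highest and BMH2 the lowest of this role on replicate 1.

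Among the metabolic and other genes, EPT1 (YHR123W), an enzyme gene of phospholipid synthesis, had 0.36, 1.60 and 0.04 on replicates 1, 3 and 4. All 3 were above the median, the last barely so. PSP2 (YML017W), an RNA-binding protein gene, had -1.18, 4.44 and -0.25 on replicates 1, 3 and 4. The value on replicate 3 was the highest of the listed genes there, while the other 2 lay below the median, and the mean of 2.10 ± 3.31 (SD, n = 2 arrays; limma, adjusted p = 0.998) rests on replicate 3. PMI40, an enzyme gene of mannose supply, had -0.42 and -0.78 on replicates 1 and 4. CPT1, a relative of EPT1, was the highest of this role on replicate 1 at 1.59, and HNT1, which encodes a nucleotide hydrolase, the lowest at -1.97. HNT2, a gene of the same enzyme family, had 0.08 and 0.25 on replicates 1 and 4, the second from spots 2.85 apart.

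Both members of a paralogous pair were measured together on replicate 1 only. There the ratio of TUB1 was 0.67 above that of TUB3, LSB3 0.49 above YSC84, CPT1 1.24 above EPT1 and MOB1 1.39 above MOB2. HNT1 minus HNT2 was -2.05. SNC1 minus SNC2, which is not on the list and had -0.18, was -1.58. BMH2 minus BMH1, which is not on the list either and had 4.03, was -5.42. These differences set probes of different genes on 1 array side by side and have no replicate check.

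Other genes of the same processes, a list of 148 that held no listed gene, were set beside the members. The metabolism and other role had no partners, so its genes count only among the listed genes below. On replicate 3 their median was 3.02 (2 genes). On replicate 1 the listed genes had a median of 0.39 and these partners 0.34 (111 genes), and on replicates 3 and 4 the listed genes had 0.59 and 0.11 and the partners -0.11 (64 genes) and -0.11 (53 genes). On replicate 2, turned, the listed genes had 1.14 and 12 partners -0.50. Of the partners, 0 passed limma's test, as did 0 of all genes. By role, the cytoskeleton members had a median of 1.87 on replicate 1, against -0.07 for 30 partners, which reached 4.22 (TUB2). These partners include tubulin, capping protein and Arp complex genes. On replicates 2 (turned), 3 and 4 the members had 0.95, 0.80 and 0.18 (3, 3 and 5 genes). The partners had -0.29, 0.26 and -0.11 there (3, 16 and 10 genes). With the runs of spots each set to 0, the order turned on replicate 3, with members at -0.65 and partners at 0.13. On replicate 1 the vesicle traffic members had 0.48, against 0.80 for 35 partners. The ubiquitin-like conjugation members had -2.10 from 4 genes there, against 0.12 for 15 partners. On replicate 3 the order was the opposite. There 3 of 6 members lay above the array median, against 1 of 8 partners, whose median was -1.20. With the runs of spots each set to 0, the members had -0.84 there and the partners -0.39, the same order as on replicate 1. The differences were not tested and go both ways.

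**Figure D4:**
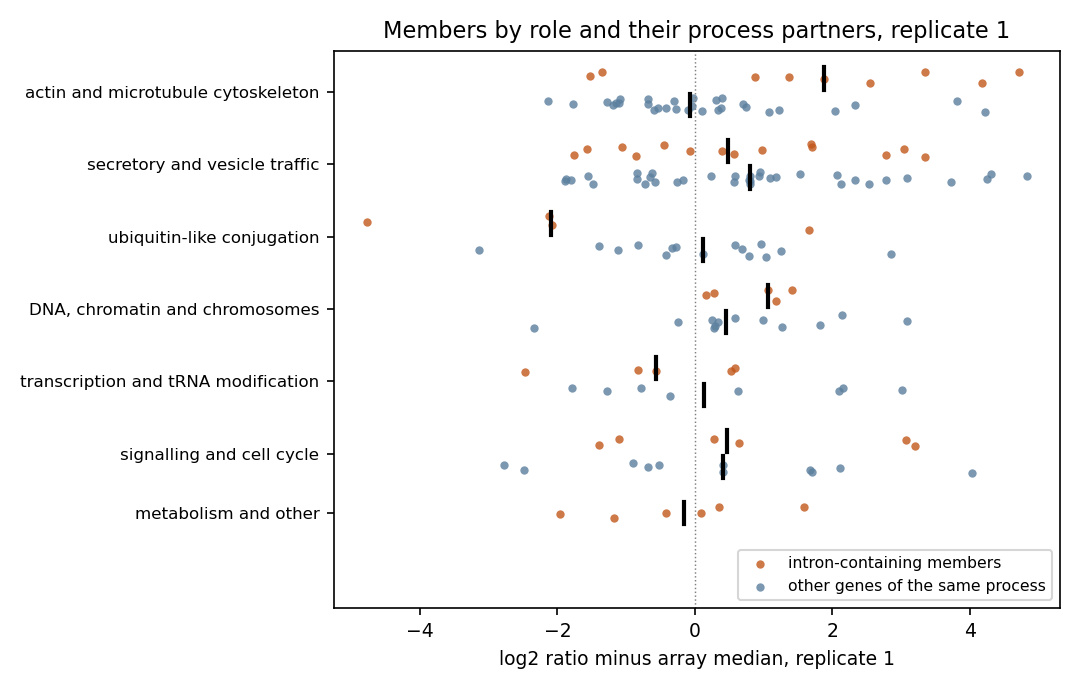
Log2 ratio minus the array median on replicate 1 (horizontal axis) for the listed genes of each role, with a black bar at each median. Under them stand other genes of the same process, except for metabolism and other, which has none. The cytoskeleton members have a median of 1.87 and their partners -0.07, while the ubiquitin-like conjugation members have -2.10 and their partners 0.12.

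The other intron-rich and splicing-related groups differed from the listed genes on replicate 1. The ribosomal protein genes, many of which also carry introns, had a median of 3.38 there (135 genes), against 0.39 for the listed genes. On replicates 3 and 4 they had 0.59 (84 genes) and 0.85 (77 genes), against 0.59 and 0.11 for the listed genes. On replicate 2 they stood on the other side of the array median from the listed genes, whose median of 1.14 (6 genes) there compares with -1.04 for 48 ribosomal protein genes. As deposited, the signs of both turn, to -1.14 for the listed genes and 1.04 for the ribosomal protein genes. The genes of spliceosome components had medians of -0.38 (67 genes), -0.22 (30 genes) and -0.13 (29 genes) on replicates 1, 3 and 4, below the listed genes on each, and 0.13 (7 genes) on replicate 2, turned. These are medians without a test between the groups.

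Spot order was taken into account in another setting, by spot number alone. With the runs of spots each set to 0, the medians of the listed genes were 0.21, 0.92, 0.21 and 0.16 on replicates 1 to 4, against 0.39, 1.14, 0.59 and 0.11 without this step. Whether spots with consecutive numbers lie side by side was not checked, and the part of spot position in the results was not tested. Some single values moved by more than 1. ACT1 had 2.99 on replicate 1 after this step, SNC1 0.03 and TFC3 -0.68. On replicate 3, COF1 had -0.65, TUB1 -2.48, TFC3 1.29 and RFA2 -2.20. ASC1 had 2.57, 1.27, 1.50 and 0.68 on replicates 1 to 4, and SEC14 had 2.77, 1.77 and 1.78 on replicates 1, 2 and 4, still above the median on each array.

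Spots of a gene printed more than once on an array differed by over 2-fold in 16 of 53 cases among the listed genes. On replicate 1 this held for 6 of 11 (54.5%), against 39.6% of other genes with several spots. On replicates 3 and 4 it held for 5 of 23 (21.7%) and 4 of 15 (26.7%), against 27.0% and 14.0%. The files give no intensities, so weak spots could not be told from bright ones.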

How the data were processed

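RNA from zzMex67 and zz precipitates was compared on 4 two-channel arrays. The authors deposited log10 ratios of one channel over the other, a unit read from the values, and per the labels channel 1 holds the zzMex67 precipitate except on replicate 2. Dyes, scanner, background correction and normalization are not stated in the sources used here, and no genome build is named, so no coordinates are printed. The depth of arrays is not a count: their number limits the precision.

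Ratios were converted to log2, spots of a gene were averaged, and each array was centred on its median over named genes, with no loess or quantile step. Symbols came from the platform annotation and were checked through gene identifiers against RefSeq R64 with 0 updates. The members, roles, partner lists and tests were chosen with earlier results of these data known. Limma 3.58.1 (R 4.3.3; lmFit, eBayes, intercept) was fitted on all genes with values on at least 2 of the 3 arrays of the second platform, with Benjamini-Hochberg adjustment. Its test is against the array median. The fit was also run on simulated data, but recovery was required there only at a spread well below the real one. Changes were simulated at the real spread too, but their recovery is not reported here. The required recovery does not show how large a change could be found in these data. Named by rule were all members on 3 or more arrays and, per role, the highest and lowest member on replicate 1; other members were named after their values were seen. Alternatives changed the sign of replicate 2, centring, scaling, the dye term, the spots and the arrays used.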

Additional observations from a re-analysis of the deposited data

How the results depend on the processing

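No paired analysis was possible because the series has 1 group and both precipitates share each array. Limma called 0 genes and 0 listed genes under all 13 alternatives run, and the listed genes' smallest adjusted p was 0.451; the dye term needed genes on all 3 arrays and tested 2 listed genes. Of the fitted means, 118 kept their direction and 9 turned. This tally is no measure of stability, since many means could not turn: a setting often left a gene's values as they were. EPT1, with no value on replicate 2, had 0.82 whichever sign that array was given. With replicate 2 as deposited, 3 means turned and 11 did not, and some of the 11 had no value on that array. With replicate 2 as deposited, COF1 had 1.80, LSB3 -0.78 and SEC14 -0.34. With all 4 arrays joined, COF1 had 1.34 and UBC13 -0.42, and with replicates 1, 3 and 4 joined they had 3.09 and -0.42. With runs of spots centred, PHO85 had -0.13 and UBC13 -0.36. With at least 2 spots per gene on an array, replicate 1 kept 11 listed genes, 90.9% of them above the array median. Their median was 1.47 above that of the other genes with at least 2 spots. The share of all such genes above the array median was not counted. In the fit on the second platform, 71.2% of genes with at least 2 spots had a mean above 0, against 59.0% of all genes tested. For replicates 1, 3 and 4 together, the count of higher genes was 1 with runs centred, and 1 or 0 on all 4 arrays with replicate 2 turned or as deposited. It was 5 to 8, with 1 to 4 lower, when 1 of the 3 arrays was left out, since more genes then qualify. For genes on 2 or more arrays, the 11 higher and 4 lower were 6 and 0 of 14 with at least 2 spots (all genes 33.3% and 11.9%). They were 6 and 1 of 14 without replicate 1 (all genes 28.8% and 17.2%), and 9 and 1 of 20 without replicate 4 (all genes 24.0% and 24.6%). Leaving out each array gave 6 to 12 higher and 1 to 4 lower (all genes 22.8% to 28.8% and 17.2% to 24.6%). The median fitted mean of all tested genes was 0.28, and 1.01 with no centring. Values rest on 1 to 4 spots and no brightness, so single ratios have no known precision beyond the spread of arrays and spots.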
